A study of Mus musculus with 4 samples.

Results

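Heat shock proteins and DnaJ cochaperones were described as a gene family, chosen by gene name. The choice took every entry of the abundance table with a symbol of the Hspa, Hspb, Hspd, Hspe, Hsph, Hsp90, Dnaja, Dnajb or Dnajc series. It found 82 of 43998 entries, of which 72 were genes and 10 were pseudogenes, and no symbol occurred in more than 1 entry. The data were 4 RNA-seq libraries of THY1+ spermatogonia from the testis of C57BL/6 mice at postnatal day 4, bound with CD90.2 antibody beads on magnetic columns. A pair of libraries was labelled germ cell RA signaling mutant, a genotype with retinoid signalling impaired in germ cells only, and a pair was labelled control. The labels used here name neither the modified gene nor the driver of germ cell specificity, and whether each library of a pair came from its own mouse is not stated.

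HSP70 proteins bind unfolded stretches of other proteins and release them in a cycle driven by ATP. J domain proteins (the DnaJ family) deliver clients to HSP70 and start its ATP hydrolysis, nucleotide exchange factors such as the HSP110 proteins reset it, and HSP90, HSP60 and the small heat shock proteins act on clients at other steps. Some members are induced by heat or damaged protein through heat shock factor 1, some are made at all times, and the testis has its own set, most of which is known from spermatocytes and spermatids.

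The authors deposited 1 RPKM value (reads scaled to transcript length and to mapped reads) for each genotype, combined from its 2 libraries. No spread between libraries could therefore be had, and no difference below has a replicate check or a p-value. Each difference is a log2 ratio of mutant over control after 1 RPKM was added to both, which shrinks the differences of weakly expressed genes. A gene was compared where either genotype reached 1 RPKM, and was called higher or lower at a 1.5-fold difference on that scale, with 2-fold as a stricter size. Depth, read from the steps between low values, was about 57.3 M reads in mutant and 56.0 M in control, if no further scaling entered the values. The median compared gene stood at 9.38 RPKM in mutant and 9.69 RPKM in control.

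The genotypes differed in the RNA levels of markers of several cell types. The germ cell identity markers summed to 2588 RPKM in mutant and 1761 RPKM in control, with 19 of 20 log2 differences above 0. Sertoli cell markers summed to 293 and 609 RPKM, Leydig cell markers to 166 and 482 RPKM, peritubular myoid markers to 43.9 and 96.2 RPKM, and macrophage markers to 1391 and 3990 RPKM in mutant and control. All compared genes of these 4 lists (12, 5, 6 and 8) had values below 0, and none of the listed genes was at 0 in both genotypes. Endothelial markers summed to 25.2 RPKM in mutant and 26.2 RPKM in control, and spermatocyte and spermatid markers to 6.88 and 7.48 RPKM, with 2 of these 10 at or above 1 RPKM. Whether cell content had a part in the differences below was not tested. In such bulk values fewer cells of a type and less RNA per cell cannot be told apart.

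On the RPKM scale, the family as a whole summed to almost the same level in both genotypes. All member entries together summed to 6228 RPKM in mutant and 6262 RPKM in control, a ratio of 0.995. The whole columns summed to 9.01e+05 RPKM in mutant and 1.006e+06 RPKM in control. As a share of its column the family was thus larger in mutant, and the ratio depends on the scale. The 5 most abundant member entries were those of Hspa8, Hsp90ab1, Hsp90aa1, Hsp90b1 and Hspe1. They made up 62.7% of that sum in mutant and 62.3% in control. Of the 72 genes, 65 reached 1 RPKM in at least 1 genotype, and 58 of those had an entry with no other symbol in it. The 7 genes below that level were Hspa1l, Dnajb8, Dnajc5b, Hspb2, Hspb7, Dnajc6 and Dnajc22. Another 7 genes shared their entry with neighbouring or embedded genes and are given below as pooled values, outside the counts.

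None of the 58 member genes differed 2-fold. At 1.5-fold, 1 was higher in mutant (Dnajc21) and 5 were lower (Hspb1, Hspb8, Hspb9, Dnajc4 and Dnajc15), which is 1.72% and 8.62% of them. Among 12184 protein-coding genes compared in the same way, 6.76% were higher and 14.9% were lower at that size. The member genes had a median log2 difference of -0.04, with quartiles at -0.28 and 0.20, beside a median of -0.06 and quartiles at -0.40 and 0.22 for protein-coding genes. With 4 expressed pseudogenes added, 62 members gave 1 that was 2-fold higher and 0 that were 2-fold lower, beside 4.4% and 4.35% of all 16473 genes compared. At 1.5-fold these 62 gave 4 higher and 5 lower, beside 12.7% and 13.7% of all genes, and their median was -0.03 beside 0.0048. Of the 62, 28 had a value above 0 and 34 below.

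**Figure D1:**
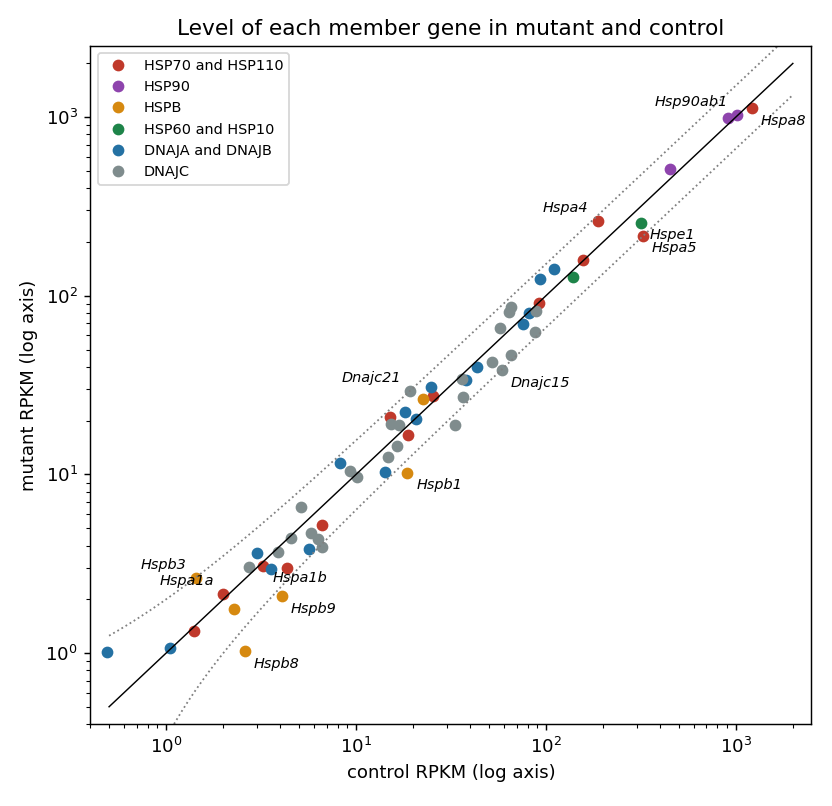
Mutant RPKM (vertical, log axis) against control RPKM (horizontal, log axis) for the 65 member genes at or above 1 RPKM in either genotype, coloured by family, with equality as a solid line and 1.5-fold differences on the RPKM + 1 scale as dotted lines. The most abundant members lie on or near equality, and Hspb1, Hspb8 and Hspb9 lie below the lower dotted line.

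The called differences lay among members of low and middle abundance. Of 11 member genes with a mean of 100 RPKM or more, pooled entries included, none was called. Of 30 genes between 10 and 100 RPKM, 1 was higher and 3 were lower, among them the pooled entry of Dnajc25. Of 23 genes between 1 and 10 RPKM, none was higher and 3 were lower. The shares of all genes called in these classes were not counted, so the pattern cannot be called particular to the family.

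The 6 stress-inducible members had values on both sides of 0. Their median log2 difference was 0.0053, with 3 above and 3 below 0, and it was -0.10 after quantile normalization. Hsp90aa1, the inducible cytosolic HSP90, which male mice also need for meiosis, stood at 992 RPKM in mutant and 906 RPKM in control (log2 difference 0.13). Dnajb1, the inducible J protein that serves HSP70, stood at 33.9 RPKM in mutant and 38.0 RPKM in control (-0.16). Hsph1, an inducible HSP110 exchange factor, stood at 27.6 RPKM in mutant and 25.6 RPKM in control (0.11).

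Hspa1b and Hspa1a, the neighbouring genes for inducible HSP70 on chromosome 17, were the lowest of this group. Hspa1b (chr17:34956436-34959238, minus strand, GRCm38) stood at 3.07 RPKM in mutant and 3.25 RPKM in control, from about 456 and 474 reads, a ratio of 0.945 with a 95% interval of 0.828 to 1.08 that covers counting error only. Hspa1a (chr17:34969190-34972156, minus strand) stood at 2.15 RPKM in mutant and 2.001 RPKM in control, from about 340 and 310 reads, a ratio of 1.08 with an interval of 0.920 to 1.26. Both intervals include equal levels. The transcripts are near copies, with 58.8% of the 50-base windows of Hspa1a also found in Hspa1b, so reads could be split between them in a way the sources used here do not state. Summed, the pair stood at 5.23 RPKM in mutant and 5.25 RPKM in control, a ratio of 0.996. The entry of the always-expressed Hspa8, which also holds embedded small nucleolar RNA genes, had 364 times the level of Hspa1b in mutant and 373 times in control. What part of that entry is Hspa8 itself was not measured.

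Hspb1, the small heat shock protein HSP25 of the mouse, was the exception among stress-inducible members. Hspb1 (chr5:135887919-135889563, plus strand) stood at 10.2 RPKM in mutant and 18.6 RPKM in control, a log2 difference of -0.81 and a 1.76-fold lower level on the RPKM + 1 scale. By the length of its longest transcript these values stand for about 420 and 761 reads, a ratio of 0.546 with a counting interval of 0.484 to 0.617. After correction for transcript length Hspb1 stood at -0.54, short of the 1.5-fold mark. Of its 50-base windows, 51.6% also occur in the pseudogene Hsp25-ps1. Hspb1 was not alone in this. Windows found in other genes made up 58.5% in Hsp90aa1, 52.7% in Hspa8, 44.8% in Hspd1 and 42.8% in Dnajb6. The Sertoli, Leydig, myoid and macrophage marker lists had medians of -0.91, -1.30, -0.66 and -1.43, and their part in the Hspb1 value was not tested.

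Sequences around the starts of these genes, and of Hspe1 and Dnajb6 from other roles, are shown because heat shock factor 1 acts through the heat shock element. The heat shock element is built of inverted GAA units, searched here as a pair, GAANNTTC or TTCNNGAA, on either strand, from 250 bases before to 50 bases after the start in RefSeq's table on GRCm38.p6. All windows run 5′ to 3′ along the gene's strand, and capitals mark the element. The Hsph1 window lies wholly after the start, and the others before it. A further pair in Hsph1, at -33 from its start, is not shown.
Hspa1b, chr17:34959324-34959353, minus strand: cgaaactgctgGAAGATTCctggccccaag
Hspa1a, chr17:34972242-34972271, minus strand: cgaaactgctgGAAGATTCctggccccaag
Hspb1, chr5:135887801-135887830, plus strand: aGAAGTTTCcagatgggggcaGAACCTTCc
Hsph1, chr5:149636287-149636316, minus strand: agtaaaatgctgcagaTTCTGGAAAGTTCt
Hspe1, chr1:55088053-55088082, plus strand: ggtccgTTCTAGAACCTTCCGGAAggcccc
Dnajb6, chr5:29735844-29735873, plus strand: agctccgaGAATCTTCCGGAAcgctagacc
The windows of Hspa1a and Hspa1b are identical, and the pair shares 247 of the 250 bases before the start (98.8%). Hspb1 holds a pair of separate elements in its window.

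Promoters were listed for 58 of the 72 member genes, which are not the same 58 as the compared genes. The rest, among them Hspa8, Hsp90ab1, Hsp90aa1 and Hspa9, were not searched. At the first start listed for each gene, a pair of units was found in 12 of 58 matched member genes and in 15.1% of all 27025 genes of the table. A run of 3 units, GAANNTTCNNGAA or TTCNNGAANNTTC, which contains the shorter form, was found there in Hsph1, Hspe1 and Dnajb6, 3 of 58, and in 0.529% of all genes. With every listed start searched, a pair was found in 16 of 58 member genes and in 16.97% of all genes, and a run of 3 units in 4 of 58 and in 0.662% of all genes. The added gene with 3 units was Hspd1, whose start lies beside that of Hspe1. Of the stress-inducible genes, Hspa1a, Hspa1b, Hspb1 and Hsph1 held a pair, no match was found at the listed starts of Dnajb1, and Hsp90aa1 was not searched. Among compared genes with an entry of their own, the 14 with a pair at any listed start had a median log2 difference of 0.11 and ranged from -0.83 in Hspb8 to 0.58 in Hspb3, with 5 below 0. The 34 without one had a median of -0.06, with 22 below 0. For the run of 3 units, the 4 genes with it had a median of -0.01, with 2 below 0. The 44 without that run had a median of -0.03, with 25 below 0. A match is a description of these letters, not evidence of binding.

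The constitutive cytosolic members were among the most abundant and stood at similar levels, with Hspa4 apart. Hspa8, the HSC70 protein that does most of the HSP70 work in unstressed cells, stood at 1117 RPKM in mutant and 1211 RPKM in control (-0.12), in an entry that also holds the embedded small nucleolar RNA genes Snord14c, Snord14d and Snord14e. This pooled entry made up 99.0% of the summed cytosolic HSP70 level in both genotypes, so the share of Hspa8 alone is not known. The sum was 1128 RPKM in mutant and 1223 RPKM in control. Hsp90ab1, the constitutive HSP90, stood at 1024 RPKM in mutant and 1017 RPKM in control (0.01). Hspa14, an HSP70 that works with Dnajc2 at the ribosome, stood at 90.5 RPKM in mutant and 91.6 RPKM in control (-0.02).

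Hspa4, an HSP110 protein that serves as exchange factor for HSP70, stood at 263 RPKM in mutant and 187 RPKM in control (0.49), short of the 1.5-fold mark, and at 0.65, past it, after quantile normalization. The HSP110 proteins Hspa4, Hspa4l and Hsph1 together summed to 312 RPKM in mutant and 228 RPKM in control, a ratio of 1.37. Hspa4 alone made up 84.4% of that sum in mutant and 82.1% in control, so the sum mainly repeats its value. Relative to the pooled Hspa8 entry, Hspa4 stood at 0.236 in mutant and 0.154 in control. When the mutant values were rescaled so that the germ cell list had a median difference of 0, all genes had a median of -0.54 and Hspa4 stood at -0.15.

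**Figure D2:**
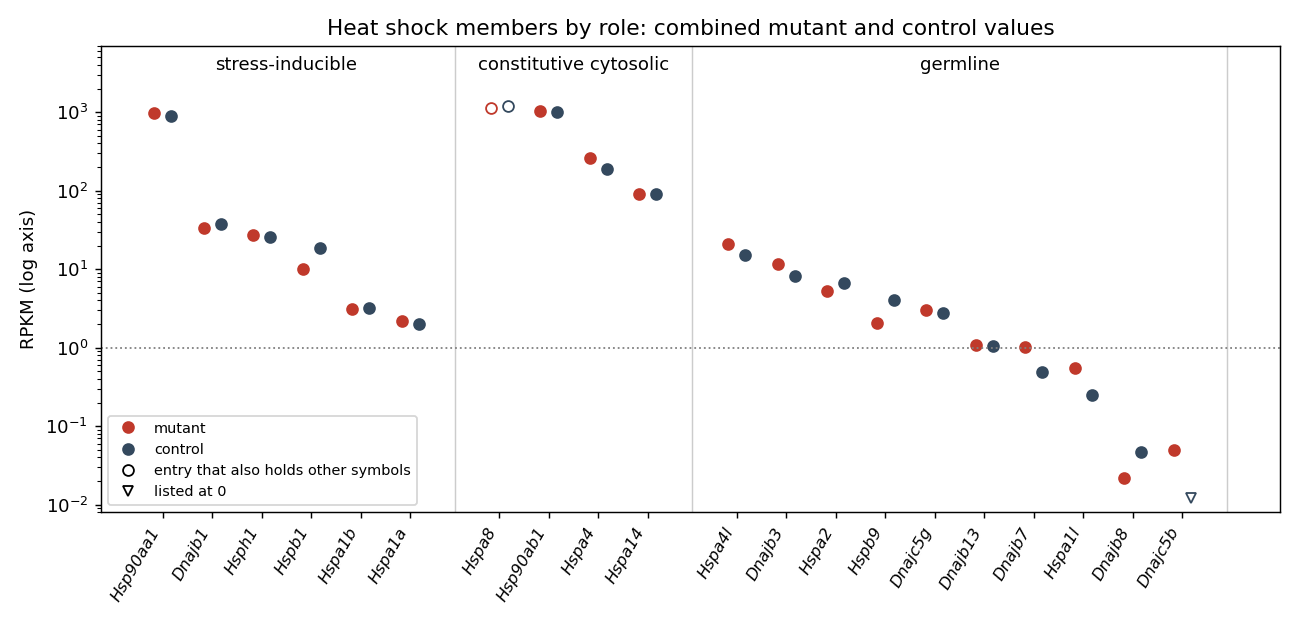
RPKM (log axis) of the stress-inducible, constitutive cytosolic and germline members, mutant in red on the left and control in dark blue on the right of each gene, with open symbols for a pooled entry or a value listed at 0 and a dotted line at 1 RPKM. Constitutive genes lie near 100 RPKM or above, the inducible genes spread over almost the whole range, and germline genes lie at 21.1 RPKM or below.

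Of 10 germline members, 7 reached 1 RPKM, 5 of them with a value above 0 and 2 below. Of these 7, 1 was called, lower in mutant, beside 14.9% of protein-coding genes. The median log2 difference of the 7 was 0.10, and -0.29 after the rescaling that set all genes at -0.54. It was 0.0035 after quantile normalization, 0.44 with the 3 members that reached 5 RPKM and 0.31 after correction for transcript length. Hspa4l, an HSP110 protein that mice need for normal sperm numbers, was the most abundant, at 21.1 RPKM in mutant and 15.1 RPKM in control (0.46). Dnajb3, a J protein known from mouse spermatids, stood at 11.6 RPKM in mutant and 8.28 RPKM in control (0.44). For Dnajb3, with 1 annotated transcript, this corresponds to about 558 and 395 reads and a ratio of 1.40 with a counting interval of 1.23 to 1.59. The listed locus of that entry, chr1:88055388-88220002, is far wider than the gene (chr1:88204732-88205782), so these values are uncertain.

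Hspa2, the spermatocyte HSP70 that mice need to complete meiosis, stood at 5.22 RPKM in mutant and 6.62 RPKM in control (-0.29). Hspb9, a small heat shock protein of the testis, stood at 2.08 RPKM in mutant and 4.06 RPKM in control (-0.72), 1.64-fold lower on the RPKM + 1 scale. By its longest transcript, Hspb9 had about 61 reads in mutant and 120 in control, a ratio of 0.512 with a counting interval of 0.366 to 0.695. After correction for transcript length Hspb9 stood at -0.45, short of the 1.5-fold mark. Hspb9 thus stood on the opposite side of 0 from the germ cell identity markers, whose median was 0.63.

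The remaining germline members were near or under 3 RPKM. Dnajc5g, a cysteine string protein of the testis, stood at 3.02 RPKM in mutant and 2.74 RPKM in control (0.10). Dnajb13, a J protein of the sperm tail, stood at 1.07 RPKM in mutant and 1.05 RPKM in control (0.0078). Dnajb7 stood at 1.01 RPKM in mutant and 0.490 RPKM in control (0.43), from about 67 and 32 reads, a ratio of 2.07 with a counting interval of 1.34 to 3.25. The locus listed for Dnajb7, chr15:81400138-81456807, is also far wider than the gene (chr15:81406926-81408299), with the same uncertainty.

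Of the 3 germline members under the filter, Hspa1l, the spermatid HSP70 beside Hspa1a on chromosome 17, stood at 0.556 RPKM in mutant and 0.248 RPKM in control. Of its 50-base windows, 71.4% also occur in the overlapping gene Gm10501, so its reads cannot be assigned to it with certainty. Dnajb8 stood at 0.0219 RPKM in mutant and 0.0467 RPKM in control, about 1 and 2 reads. Dnajc5b stood at 0.0501 RPKM in mutant, about 2 reads, and was listed at 0 in control.

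In the endoplasmic reticulum, Hspa5 and the pooled entry of Hsp90b1 had values on opposite sides of 0. Hspa5, the HSP70 BiP, which also holds the stress sensors of that compartment, stood at 216 RPKM in mutant and 322 RPKM in control (-0.57), just short of the 1.5-fold mark, and at -0.36 after quantile normalization. Hsp90b1, the HSP90 GRP94, stood at 514 RPKM in mutant and 450 RPKM in control (0.19), in an entry that also holds Gm15344 and Gm25745. The level of this pooled entry was thus 2.38 times that of Hspa5 in mutant and 1.40 times in control. What part of the entry is Hsp90b1 itself was not measured.

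The J proteins that work with Hspa5 showed smaller differences. Dnajb11 stood at 69.3 RPKM in mutant and 76.0 RPKM in control (-0.13), and Dnajc10, a J protein that also reduces disulfides, at 65.8 RPKM in mutant and 57.2 RPKM in control (0.20). Dnajb9, a J protein that represses the sensor IRE1 through Hspa5, stood at 30.7 RPKM in mutant and 24.9 RPKM in control (0.29). The 11 compared genes of the compartment had a median of -0.06, 3 above and 8 below 0, and none was called. The pooled entry of Dnajc25 with Gm20503 and Gng10 was 1.72-fold lower on the RPKM + 1 scale, at 19.0 RPKM in mutant and 33.4 RPKM in control (-0.78), and cannot be assigned to Dnajc25.

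Hspa5, Hsp90b1 and Dnajc3 carry the ER stress element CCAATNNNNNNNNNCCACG, through which the unfolded protein response acts, within the same promoter windows. It was found in 3 of 58 matched member genes and in 0.130% of all genes, at the first start listed for each. Capitals mark the element, which lies on the opposite strand in the Hsp90b1 window.
Hspa5, chr2:34772020-34772049, plus strand: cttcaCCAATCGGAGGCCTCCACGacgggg
Hsp90b1, chr10:86705527-86705556, minus strand: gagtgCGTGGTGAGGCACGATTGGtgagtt
Dnajc3, chr14:118937822-118937851, plus strand: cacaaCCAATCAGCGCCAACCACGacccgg
Hspa5 and Dnajc3, the 2 of these genes with an entry of their own, were both below 0, at -0.57 and -0.17. The pooled entry of Hsp90b1 stood at 0.19, which cannot be assigned to Hsp90b1 alone. Dnajc3, an inhibitor of the kinase PERK, stood at 14.5 RPKM in mutant and 16.4 RPKM in control.

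Mitochondrial members had mostly lower values in mutant. Of 7 compared, 6 were below 0, 1 was called, and the median log2 difference was -0.30, and -0.22 after correction for transcript length. Among protein-coding genes, 6788 of 12184 were below 0, 14.9% were called lower and the median was -0.06. Hspe1 (HSP10), the lid of the HSP60 chamber, stood at 256 RPKM in mutant and 315 RPKM in control (-0.30, and -0.03 after the length correction). Hspd1 (HSP60), which lies head to head with Hspe1 on chromosome 1 and overlaps it, stood at 127 RPKM in mutant and 139 RPKM in control (-0.13). Hspe1 was 2.01 times as abundant as Hspd1 in mutant and 2.27 times in control.

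Hspa9, the HSP70 that pulls proteins into the matrix, stood at 159 RPKM in mutant and 157 RPKM in control (0.02), while J proteins of the same import motor were lower in value. Dnajc15 (chr14:77820681-77875125, minus strand) was called, at 38.2 RPKM in mutant and 58.7 RPKM in control (-0.61). It was past the 1.5-fold mark under the 7 other settings, but changes of filter and pooling cannot alter its value, and rescaling lowered most genes. Dnajc15 stood at -0.62 with a pseudocount of 0.1 RPKM, -0.65 after the length correction and -0.59, just past the mark, after quantile normalization. Dnajc19 stood at 63.0 RPKM in mutant and 87.7 RPKM in control (-0.47). Dnajc30, a mitochondrial J protein that associates with the ATP synthase, stood at 4.34 RPKM in mutant and 6.31 RPKM in control (-0.45). Dnaja3, pooled with Vasn, stood at 39.7 RPKM in mutant and 43.6 RPKM in control (-0.13).

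**Figure D3:**
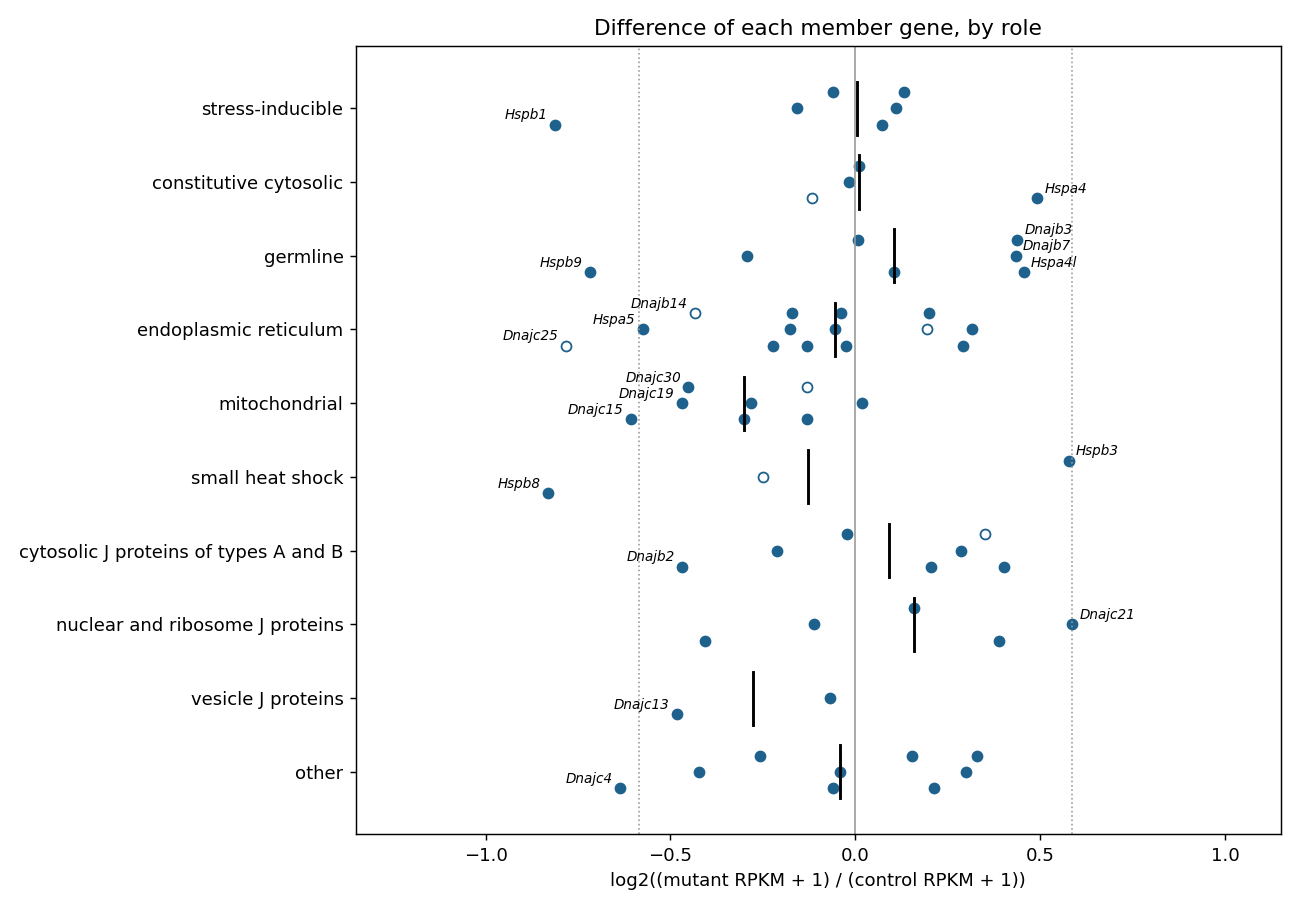
Difference of each member gene at or above 1 RPKM, as log2((mutant RPKM + 1) / (control RPKM + 1)), in rows by role, with open symbols for pooled entries, a black bar at the median of the other genes and dotted lines at 1.5-fold. The medians lie between -0.30 (mitochondrial) and 0.16 (nuclear and ribosome J proteins), and few genes pass the dotted lines.

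Of the other small heat shock proteins, Hspb8, which works with Bag3 to send clients to autophagy, stood at 1.02 RPKM in mutant and 2.60 RPKM in control (-0.83), 1.78-fold lower on the RPKM + 1 scale. By its longest transcript, Hspb8 had about 94 reads in mutant and 236 in control, a ratio of 0.393 with a counting interval of 0.305 to 0.500. Bag3 itself stood at 2.76 RPKM in mutant and 3.89 RPKM in control (-0.38). Hspb3, a small heat shock protein of muscle, stood at 2.63 RPKM in mutant and 1.43 RPKM in control (0.58, just under the mark), from about 86 and 47 reads, a ratio of 1.84 with a counting interval of 1.26 to 2.66. Hspb6, in a pooled entry, stood at 1.76 RPKM in mutant and 2.28 RPKM in control (-0.25). The 3 lower calls among HSPB genes, Hspb1, Hspb8 and Hspb9, were 3 of the 5 HSPB genes compared, beside 14.9% of protein-coding genes, and after the length correction Hspb8 alone of them passed the mark, at -0.60.

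Cytosolic J proteins of types A and B, the general partners of HSP70, had a median of 0.09, and -0.50 after the rescaling that set all genes at -0.54, and none was called. Dnaja1, pooled with Mir207, stood at 141 RPKM in mutant and 110 RPKM in control (0.35). Dnajb6, which holds back protein aggregation, stood at 124 RPKM in mutant and 93.4 RPKM in control (0.40). Dnaja2 stood at 80.0 RPKM in mutant and 81.3 RPKM in control (-0.02).

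Among nuclear and ribosome J proteins, Dnajc21 was the single member gene called higher in mutant. Dnajc21 (chr15:10446756-10470516, minus strand), whose yeast counterpart acts in the making of the large ribosomal subunit, stood at 29.4 RPKM in mutant and 19.2 RPKM in control (0.59), at the 1.5-fold mark, and at -0.04 after the rescaling to the germ cell list. Dnajc2, the ribosome-bound partner of Hspa14, stood at 86.4 RPKM in mutant and 65.7 RPKM in control (0.39). Dnajc8, a J protein of the splicing machinery, stood at 82.1 RPKM in mutant and 88.8 RPKM in control (-0.11), and Dnajc9, a histone chaperone, at 27.2 RPKM in mutant and 36.4 RPKM in control (-0.41).

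Among vesicle J proteins, Dnajc13, which acts on endosomes, stood at 46.7 RPKM in mutant and 65.7 RPKM in control (-0.48). Dnajc5, the cysteine string protein of secretory vesicles, stood at 34.3 RPKM in mutant and 36.1 RPKM in control (-0.07). The clathrin uncoating J protein Dnajc6 stood under the filter, at 0.589 RPKM in mutant and 0.511 RPKM in control.

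Of the members outside these groups, Dnajc7, a J protein that binds both HSP70 and HSP90, stood at 80.9 RPKM in mutant and 64.2 RPKM in control (0.33). Hspb11, an intraflagellar transport protein despite its name, stood at 26.3 RPKM in mutant and 22.5 RPKM in control (0.21). Dnajc24, which acts in diphthamide synthesis, stood at 18.8 RPKM in mutant and 16.8 RPKM in control (0.15). Dnajc4 was called lower, at 3.91 RPKM in mutant and 6.63 RPKM in control (-0.64), and stood at -0.36 after correction for transcript length.

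Of the 10 pseudogene entries, 4 reached 1 RPKM, and 3 of these 4 were called higher, beside 12.7% of all genes compared. They were 3 of the 4 higher calls among the 62 members. Hspe1-ps2 stood at 1.49 RPKM in mutant and 0.176 RPKM in control, about 9 reads and 1 read, a ratio of 8.48 with a counting interval of 1.34 to 423. Hspa9-ps1 on chromosome X stood at 2.16 RPKM in mutant and 0.820 RPKM in control, about 213 and 80 reads, a ratio of 2.63 with an interval of 2.02 to 3.43. Hspe1-ps5 stood at 7.22 RPKM in mutant and 3.95 RPKM in control, about 36 and 21 reads. Their loci in the table are far wider than the pseudogenes, and 11.03% of the 50-base windows of Hspe1-ps2 also occur in Hspe1, so these values are uncertain.

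Genes that act with the family were taken from lists of partners. Of the heat shock transcription factors, Hsf1, the regulator of the heat shock response, stood at 17.6 RPKM in mutant and 17.9 RPKM in control (-0.02). Hsf2 stood at 33.2 RPKM in mutant and 24.9 RPKM in control (0.40). Hsf5, a testis member, was called higher, at 2.67 RPKM in mutant and 0.995 RPKM in control (0.88). Hsf2bp, a meiotic recombination protein listed with them because it binds HSF2, stood at 30.4 RPKM in mutant and 24.9 RPKM in control (0.28), and Hsf4 at 0.232 RPKM in mutant and 0.239 RPKM in control.

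The other lists held few calls, where 6.76% of protein-coding genes were higher and 14.9% were lower. Of 11 nucleotide exchange factors, 1 was lower, Grpel1, the exchange factor of Hspa9, at 12.04 RPKM in mutant and 19.7 RPKM in control (-0.67), and the list median was -0.17. Of 7 genes of the unfolded protein response, 2 were lower and the median was -0.29. They were Sdf2l1, a partner of Hspa5 complexes, 2-fold lower at 12.5 RPKM in mutant and 26.2 RPKM in control (-1.01), and Herpud1, which acts in the disposal of misfolded proteins, at 12.5 RPKM in mutant and 20.3 RPKM in control (-0.66). No gene was called among 15 HSP90 and HSP70 cochaperones (median -0.14), 6 subunits of the TRiC chaperonin (0.08), 5 of prefoldin (0.05), 3 other J domain proteins (0.49) and 7 other chaperones (-0.38). All 7 other chaperones had values below 0, and the lowest was the calcium-binding ER chaperone Calr at 276 RPKM in mutant and 371 RPKM in control (-0.43).

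**Figure D4:**
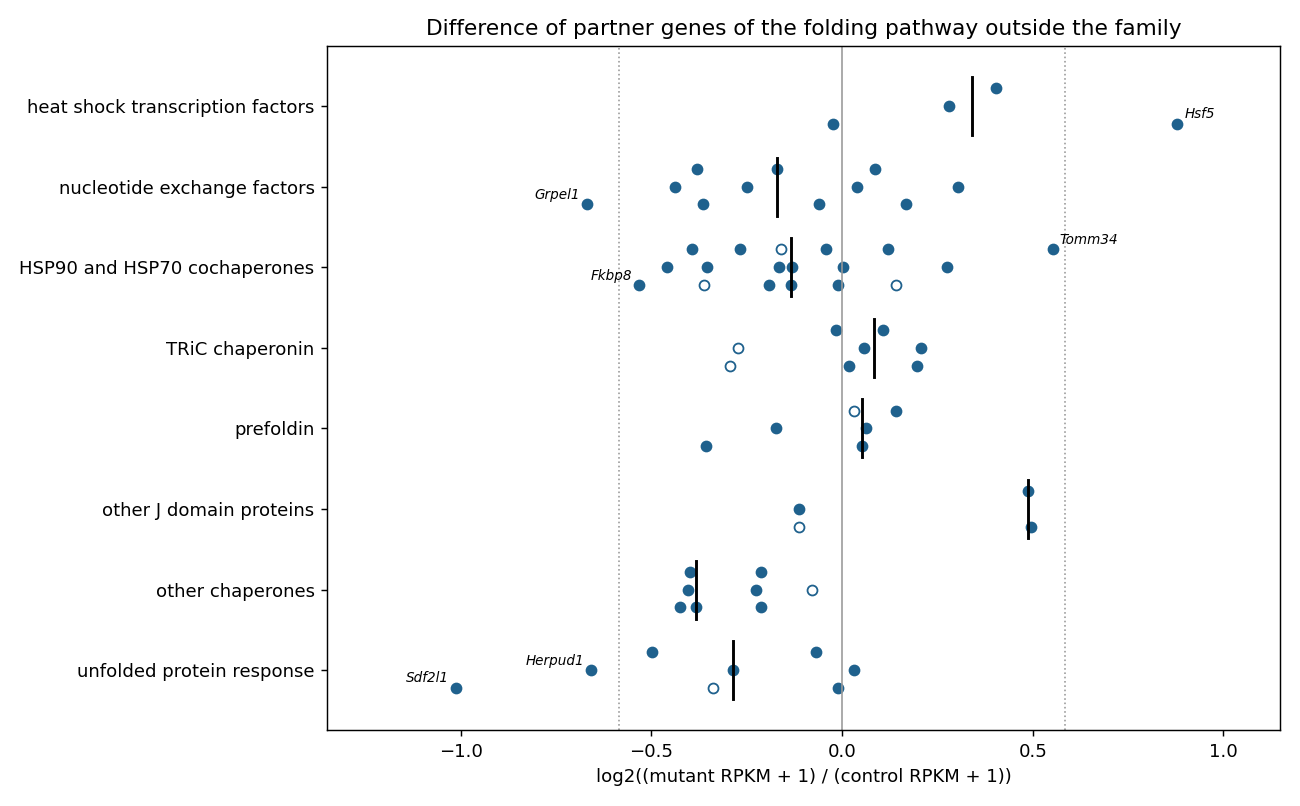
Difference of each partner gene at or above 1 RPKM, as log2((mutant RPKM + 1) / (control RPKM + 1)), in rows by list, with open symbols for pooled entries, a black bar at the median of the other genes and dotted lines at 1.5-fold. Hsf5 lies to the right of the dotted lines, and Grpel1, Herpud1 and Sdf2l1 lie to the left.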

How the data were processed

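Per the labels' protocols, RNA was taken from bead-enriched cells with Trizol and libraries followed standard Illumina procedures. The submitters' processing notes name TopHat2 2.0.11 and GRCm38. For the counting program, annotation, strand setting and combination of libraries, nothing is given in the sources used here. The deposited values are RPKM per the file headers, 1 column for each genotype.

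Members, roles and lists were chosen with earlier results of these data known. Every stress-inducible, constitutive and germline member was named, as were other genes past 1.5-fold and the 3 most abundant of each remaining role. The remaining genes given with values (Dnajb9, Dnajc3, Dnajc6, Dnajc10, Dnajc19, Dnajc30, Dnaja3, Bag3 and Calr) were named after their values were seen. Of the partner lists, the heat shock factors and genes past 1.5-fold were named. Entries with several symbols were left out of counts of calls, except in abundance classes, and kept in counts of promoter elements.

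Depth came from low values up to 10 reads, of which 95.3% in mutant and 90.5% in control lay within 0.1 of a whole read. Read ratios have exact 95% binomial intervals, and with several transcripts the longest was used. GENCODE M21 (GRCm38) gave gene coordinates and lengths, and RefSeq gave promoters. Calls and depth steps were tested on simulated data. Python 3.11.15, numpy 2.4.6, pandas 2.3.3 and scipy 1.17.1 were used.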

Additional observations from a re-analysis of the deposited data

How the results depend on the processing

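No paired analysis was possible because each genotype has 1 combined value, and for the same reason no library could be left out. Among the 62 members, the count 2-fold higher in mutant, 1 as reported, was 2 with a pseudocount of 0.1 RPKM, 0 with a filter of 5 RPKM, which left 45 members, 0 with quantile-normalized columns, 0 when rescaled to the germ cell markers and 2 after the length correction. In the same order, 1417 of 16473, 525 of 11168, 649 of 16473, 383 of 16473 and 987 of 15465 of all compared genes were 2-fold higher. The count 2-fold lower, 0 as reported, was 1 with a pseudocount of 0.1 RPKM, 1 after quantile normalization and 9 after rescaling. Of all 16473 genes compared, 1107, 758 and 3032 were 2-fold lower in these settings. The count 1.5-fold higher, 4 as reported, was 2 with the filter of 5 RPKM, 1 after rescaling and 7 after the length correction. In these settings 10.7%, 3.89% and 16.3% of all genes were higher. The count 1.5-fold lower, 5 as reported, was 3 with the filter of 5 RPKM, 32 after rescaling and 3 after the length correction, where 16.4%, 46.2% and 10.9% of all genes were lower. Rescaling moved the median of all genes to -0.54 and that of the members to -0.62. The length correction moved the median of all genes to 0.073 and that of the members to 0.056. Dnajc21 stood at -0.037 after rescaling.

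Rescaling turned the medians of the stress-inducible (-0.52), constitutive (-0.64), germline (-0.29), type A and B J protein (-0.50), nuclear and ribosome J protein (-0.42), heat shock transcription factor (-0.28), TRiC (-0.56), prefoldin (-0.59) and other J domain (-0.13) lists below 0. The stress-inducible median was also -0.025 with the filter of 5 RPKM and -0.10 after quantile normalization, and the constitutive median was -0.0035 with pooled entries kept. The median of members outside the role groups was 0.18 with the filter of 5 RPKM and 0.0031 after the length correction, which also gave 0.13 for small heat shock proteins and 0.066 for nucleotide exchange factors. Combined values limit all of this: the spread between libraries is unknown, and counting intervals cover counting error only.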
